A study of Mus musculus with 4 samples.

Results

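Peaks of propionylated lysine 23 of histone H3 (H3K23pr) were examined inside very long genes, taken as protein-coding genes of 500 kb or longer on chromosomes 1 to 19 of the mouse genome. A peak was a member when its summit lay between a gene's start and end in the RefSeq gene table of build GRCm38.p6, the assembly that mm10 names. Of 20661 protein-coding genes on these chromosomes, 215 were long enough. They made 212 loci once overlapping genes were merged, with a total length of 179.585 Mb. Their median length was 734.843 kb, 55 reached 1 Mb, and the longest was Ptprd at 2270.51 kb. They held 3818 of the 54397 peaks deposited for the control liver and 3429 of the 41907 peaks deposited for the knockout liver.

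The 4 libraries came from the liver of male C57BL/6 mice of 2 genotypes, with 1 immunoprecipitate (IP) by an anti-H3K23pr antibody and 1 input from each. The control carried RPN11 flox/flox and is called WT, as in the sample titles, and the other genotype was an RPN11 hepatocyte-specific knockout, called KO. Psmd14 encodes RPN11, the metalloprotease of the proteasome lid that removes ubiquitin chains from substrates, and the series title places the work in nonalcoholic fatty liver disease. Every group was 1 library, so no difference below has a replicate check, no p-value is given, and each interval is a 95% interval for counting error alone. The age of the mice, the number pooled and the promoter driving the recombinase are not given in the sources used here, and liver chromatin also holds the non-hepatocyte cells in which the knockout was not made. Peak positions can check neither the tissue nor the loss of RPN11. Each library contributed from 9385834 to 15468265 fragments after the peak caller's filter, and most peaks were small: the fewest IP fragments over a summit were 4 in both lists, and 41.3% of the WT peaks and 46.5% of the KO peaks in very long genes stood at that minimum.

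Lysine propionylation adds a propionyl group, taken from propionyl-CoA, to the same lysines that acetylation marks, and propionylated histone H3 has been described at active chromatin. Propionyl-CoA comes from odd-chain fatty acids, branched-chain amino acids and other substrates that the liver breaks down. Mammalian genes of this length consist almost entirely of intron. Many encode synaptic adhesion molecules, receptors and channels used mainly in neurons, while a smaller number, such as Dpyd, Zbtb20 and Pard3, are used in hepatocytes as well.

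A few peaks touched annotated transcript starts. The RefSeq promoter table held 271 windows for them, each from 250 bases before to 50 bases after a transcript start, and 2 WT peaks and 0 KO peaks touched one. A further 319 windows belonged to other transcripts starting inside the very long genes, and 6 WT peaks and 0 KO peaks touched one of those. Together the windows took up 0.148 Mb, 0.0825% of the length of the very long genes, and 0.210% of the WT peaks touched one, so these small counts give no result about starts. The 3 sequences below are shown because they are the only own promoter windows that a peak reached and the nested window that a peak covered over the most bases. They are the 250 bases before the start on the plus strand of GRCm38.p6, credited to RefSeq, with the bases under the WT peak in capitals.
Cntnap2 promoter, chr6:47244146-47244395: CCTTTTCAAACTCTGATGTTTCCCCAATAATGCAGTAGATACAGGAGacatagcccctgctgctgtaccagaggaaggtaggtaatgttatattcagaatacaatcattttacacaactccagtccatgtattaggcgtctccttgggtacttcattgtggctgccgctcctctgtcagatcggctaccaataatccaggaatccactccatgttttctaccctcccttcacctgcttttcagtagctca
Ctnna3 promoter, chr10:63457261-63457510: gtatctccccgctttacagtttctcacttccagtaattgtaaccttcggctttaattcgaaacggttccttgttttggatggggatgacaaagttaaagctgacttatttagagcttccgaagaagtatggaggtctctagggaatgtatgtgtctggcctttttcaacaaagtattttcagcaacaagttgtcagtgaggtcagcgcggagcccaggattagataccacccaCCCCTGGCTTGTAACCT
9530091C08Rik promoter inside Rora, chr9:68765096-68765345: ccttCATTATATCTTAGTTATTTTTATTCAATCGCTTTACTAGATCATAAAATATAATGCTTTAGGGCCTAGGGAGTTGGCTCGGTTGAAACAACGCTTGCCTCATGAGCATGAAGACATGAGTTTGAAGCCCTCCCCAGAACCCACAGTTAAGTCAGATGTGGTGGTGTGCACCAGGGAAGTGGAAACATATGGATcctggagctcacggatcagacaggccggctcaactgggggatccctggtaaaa

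The Cntnap2 peak, at chr6:47244091-47244192, had 5 fragments over its summit and covered 47 of the printed bases. This window belongs to a transcript that starts inside the gene body, and Cntnap2 encodes a neurexin-like protein that clusters potassium channels on axons. The Ctnna3 peak, at chr10:63457494-63457663, had 6 fragments and covered 17 bases at the edge next to the start. Ctnna3 encodes an alpha-catenin of cell junctions. The peak in Rora, at chr9:68765100-68765292, also had 6 fragments and a caller fold enrichment of 4.14, and it covered 193 bases. Rora encodes an orphan nuclear receptor that acts in hepatic lipid and clock gene control. The GC contents of the 3 printed sequences were 45.2%, 44.8% and 46.0%, below the median of 52.7% over all promoter windows of 300 bases in the table. The gene table gives no exons, so exonic and intronic peaks were not separated.

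In WT the very long genes held 21.3 peaks per Mb (20.6 to 21.9), and in KO 19.1 peaks per Mb (18.5 to 19.7). The WT density was below that of the 803.929 Mb of shorter protein-coding genes, at 24.4 per Mb, with a ratio of 0.870 (0.840 to 0.901). In KO the order was the opposite, at 19.1 against 18.2 per Mb, a ratio of 1.05 (1.01 to 1.09). Against the 1420.39 Mb outside protein-coding genes, the ratio was 1.01 (0.976 to 1.04) in WT and 1.18 (1.14 to 1.22) in KO. The KO excess over shorter genes depended on the weakest peaks: with at least 5 summit fragments it was 0.903 (0.858 to 0.950), below 1. The caller's local background moved with this comparison. It stood above its lowest value at 6.65% of the WT peaks in very long genes against 12.8% of the WT peaks elsewhere, and at 5.28% against 14.6% in KO. With only peaks at the lowest background, the WT ratio to shorter genes was 0.977 (0.942 to 1.01), an interval that holds 1, and the KO ratio was 1.23 (1.18 to 1.28). This setting removes a larger share of peaks elsewhere than in very long genes and leaves the lengths unchanged. A rise of both ratios was thus built in, and the part of background in the WT difference was not tested.

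The number of KO peaks for each WT peak was larger in very long genes than in the rest of the genome. It was 0.898 (0.857 to 0.941) in very long genes, 0.746 (0.730 to 0.762) in shorter genes and 0.769 (0.756 to 0.783) outside genes. The first exceeded the second by a ratio of 1.20 (1.14 to 1.27) and the third by 1.17 (1.11 to 1.23). By length class, with nested genes counted in their own class too, the KO to WT ratio was lowest in genes under 20 kb, at 0.558 (0.514 to 0.605). It lay between 0.734 and 0.805 in the classes from 20 to 500 kb, at 0.871 (0.808 to 0.938) from 500 to 750 kb and at 0.824 (0.747 to 0.910) from 750 to 1000 kb. In genes of 1 Mb or longer it was 0.975 (0.904 to 1.05), an interval that holds equality. WT density fell off with length above 100 to 200 kb, from 26.2 to 19.2 per Mb, while KO density stayed between 17.9 and 20.3 per Mb over the same classes.

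**Figure D1:**
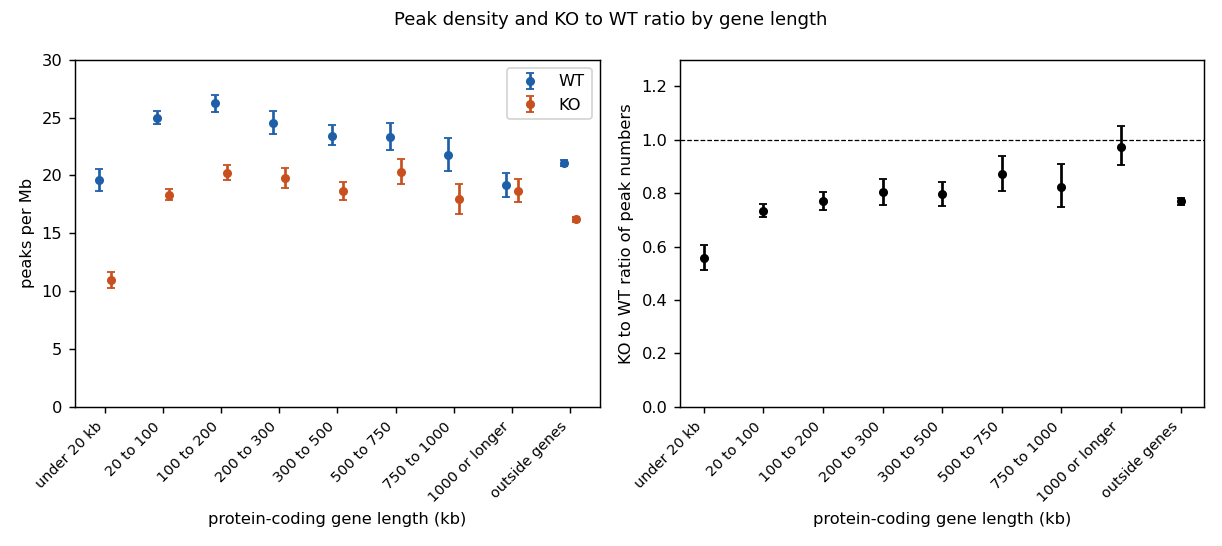
Peaks per Mb (left, WT blue and KO orange) and KO to WT ratio of peak numbers (right) in classes of protein-coding gene length in kb and outside genes; points are 1 library each and bars are 95% counting intervals. WT density drops from 26.2 to 19.2 per Mb between the 100 to 200 kb class and the longest genes, and the ratio climbs from 0.558 in the shortest to 0.975 in the longest.

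The direction of the KO to WT ratio turned with the choice of peaks. The IP library gave 13615838 fragments in WT and 15468265 in KO, and per IP fragment the ratio in very long genes was 0.791 (0.755 to 0.828). IP fragments averaged 97 bp in WT against 71 bp in KO. Among the 40000 strongest peaks of each list the ratio was 1.23 (1.17 to 1.29). Among peaks with a caller q of 0.05 or smaller it was 2.66 (2.34 to 3.03), and with at least 5 summit fragments 0.819 (0.769 to 0.871). Taking equal numbers from lists of 54397 WT and 41907 KO peaks raises the ratio by construction. The q limit kept 25.6% of the KO but 8.64% of the WT peaks in very long genes, and 27.6% and 9.69% elsewhere. Its unequal effect on the lists was therefore not particular to very long genes. The comparison with shorter genes kept its direction in each setting. In the order given, the ratio of ratios was 1.32 (1.25 to 1.40), 1.32 (1.15 to 1.52) and 1.18 (1.10 to 1.26). The KO IP library was thus deeper and its fragments shorter. Both differences go together with genotype and cannot be told apart from it.

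The genes differed from each other by more than counting error gives. WT density ran from 5.67 to 51.0 per Mb with a median of 20.6, and its SD over the 215 genes was 9.06 where counting at 1 common rate would give 5.34. KO density ran from 1.25 to 56.7 per Mb with a median of 17.0, and its SD was 10.9 where counting would give 5.06. Genes held 3 to 56 WT peaks and 1 to 77 KO peaks. The 2 lists ordered the genes in a related way, with a Pearson correlation of 0.697 and a Spearman correlation of 0.604 across 215 genes. These are descriptions: both lists share the genome's mappability and base composition, and neighbouring genes are not independent. Over 2394 windows of 1 Mb from all of chromosomes 1 to 19, the same Pearson correlation was 0.562. The genes just under and just over the length limit showed no break. From Ank3 at 493.951 kb to Dnm3 at 495.872 kb, 4 genes held 18.1 to 28.3 WT and 6.07 to 24.2 KO peaks per Mb. From Edil3 at 501.754 kb to Stpg2 at 504.407 kb, 4 genes held 11.9 to 25.8 and 5.96 to 21.9.

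**Figure D2:**
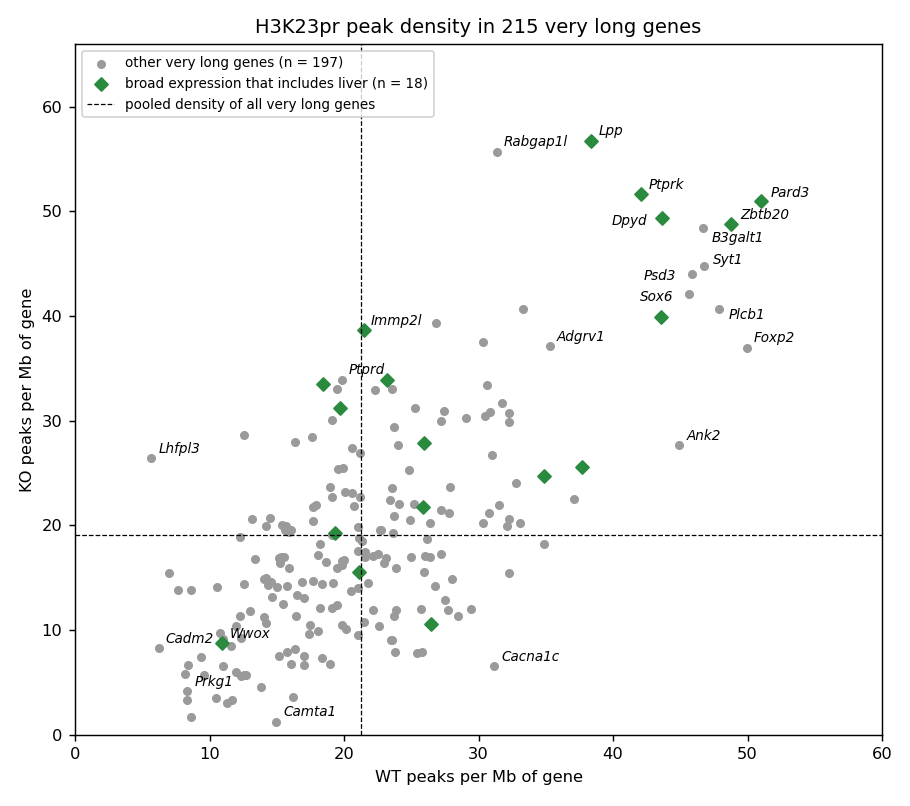
WT (x axis) and KO (y axis) H3K23pr peaks per Mb of gene for the 215 very long genes, 1 point a gene; green diamonds are the 18 genes listed as broadly expressed including liver, and dashed lines are the pooled densities of 21.3 and 19.1. Pard3, Zbtb20, Dpyd, Ptprk and Lpp form the upper right with B3galt1, Syt1, Psd3 and Sox6.

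A gene was called departing when the exact Poisson interval of its count did not hold the rate of all other very long genes pooled. In WT 23 genes departed higher and 20 lower, 10.7% and 9.30% of the 215. The same rule called 10.7% of the 1 Mb windows higher and 10.2% lower. In KO 34 genes departed higher and 35 lower, 15.8% and 16.3%, where the windows gave 14.9% and 21.5%. So the genes, which are of other lengths than the windows, departed at shares of 9.30% to 16.3% where the windows gave 10.2% to 21.5%. Both lists together called 16 genes higher (7.44%, windows 5.51%) and 15 genes lower (6.98%, windows 5.64%), and 0 genes departed in opposite directions.

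The 16 genes high in both lists were led by Pard3, at chr8:127063381-127612286, which encodes a scaffold of the cell polarity complex at tight junctions. It held 28 WT and 28 KO peaks, 51.0 per Mb (33.9 to 73.7) in each list, which was the highest WT density of all. Zbtb20, at chr16:42875689-43634392, encodes the zinc-finger repressor that keeps alpha-fetoprotein silent in adult liver. It held 37 and 37 peaks, 48.8 per Mb (34.3 to 67.2) in each. Dpyd, at chr3:118562109-119432924, encodes the rate-limiting enzyme of pyrimidine breakdown and held 38 WT peaks (43.6 per Mb, 30.9 to 59.9) and 43 KO peaks (49.4 per Mb, 35.7 to 66.5). In the full lists all 3 genes lay above the pooled rate by more than their counting intervals, with near-equal WT and KO numbers. For Dpyd the lists differed more among stronger peaks. With at least 5 fragments its density over that of the other very long genes was 1.85 in WT and 3.53 in KO. With a caller q of 0.05 or smaller these ratios were 1.25 and 5.28.

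Lpp, which encodes a LIM-domain protein of focal adhesions, had the highest KO density of all, with 34 peaks (56.7 per Mb, 39.3 to 79.3) against 23 in WT (38.4 per Mb, 24.3 to 57.6). Ptprk, a receptor tyrosine phosphatase of cell contacts, had 22 WT peaks (42.1 per Mb) and 27 KO peaks (51.7 per Mb). Sugct, a mitochondrial CoA transferase acting on glutarate, had 27 (32.2) and 25 (29.9). In these 3 genes too the WT and KO intervals overlapped.

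The transcription factors among the 16 besides Zbtb20 were Sox6, with 26 WT peaks (45.6 per Mb) and 24 KO peaks (42.1), and the forkhead factor Foxp2, with 27 (49.9) and 20 (37.0). Signalling genes were Plcb1, a phosphoinositide-cleaving phospholipase C, with 33 (47.9) and 28 (40.6), Psd3, an exchange factor for ARF6, with 24 (45.9) and 23 (44.0), and Pde4d, a cAMP phosphodiesterase, with 42 (32.3) and 40 (30.7). Others were B3galt1, a galactosyltransferase, with 26 (46.7) and 27 (48.5), Syt1, the calcium sensor of synaptic vesicle release, with 24 (46.8) and 23 (44.8), Adgrv1, a very large adhesion receptor of hair cells, with 19 (35.3) and 20 (37.2), and Thsd7b, with 30 (31.7) in each list. The set thus mixed genes of hepatocyte function with genes known mainly from neurons. Rabgap1l, a GTPase-activating protein for Rab proteins, had the KO density next below Lpp, with 32 peaks (55.7 per Mb, 38.1 to 78.7), and its 18 WT peaks (31.3 per Mb, 18.6 to 49.5) did not depart.

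The high densities were made of many weak peaks, more of them above the minimum than in the other very long genes. In the 16 genes 33.6% (29.2 to 38.1) of WT peaks and 37.5% (33.0 to 42.1) of KO peaks stood at 4 fragments, against 42.4% and 47.9% in the other very long genes. In Zbtb20, 25 WT and 23 KO peaks had at least 5 fragments, and 8 and 15 had a caller q of 0.05 or smaller. In Pard3, 16 and 22 had at least 5 fragments, and 0 WT peaks and 10 KO peaks had that q. When only peaks of at least 5 fragments were counted, 11 of the 16 genes departed higher in both lists, including Pard3, Zbtb20, Dpyd, Lpp and Ptprk. With the q limit B3galt1, Ptprk and Zbtb20 did and the other 13 did not. Counted against the rate of all other sequence of the same chromosome, 13 of the 16 still departed. The 16 genes also had a caller background above the lowest at 9.33% of WT peaks against 6.29% in the other very long genes and at 6.87% against 5.04% in KO. With only peaks at the lowest background, 12 of the 16 departed in both lists.

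The 15 genes low in both lists were mostly of membrane adhesion, channels and their partners. Csmd2, at chr4:127986505-128567660, encodes a CUB and sushi domain protein and held 5 WT peaks (8.60 per Mb, 2.79 to 20.1) and 1 KO peak (1.72 per Mb, 0.0436 to 9.59). Prkg1, at chr19:30564487-31765268, encodes the cGMP-dependent protein kinase and held 10 (8.33, 3.99 to 15.3) and 5 (4.16, 1.35 to 9.72) over a gene of 1200.78 kb. Cadm2, an immunoglobulin-family adhesion molecule, held 6 (6.21) and 8 (8.29). For these genes a handful of peaks over a megabase sets the value, and Csmd2 rests on 1 KO peak.

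Other adhesion genes in the low set were Cdh12, with 12 WT peaks (10.4 per Mb) and 4 KO peaks (3.48), and Cdh18, with 10 (10.8) and 9 (9.69), both type II cadherins. Sdk1, a sidekick adhesion molecule, held 11 (11.3) and 3 (3.08), and Nrxn3, a presynaptic neurexin, held 21 (13.0) and 19 (11.8). Lsamp, a neuronal IgLON protein and the third longest gene, held 27 (12.3 per Mb, 8.10 to 17.9) and 25 (11.4 per Mb, 7.36 to 16.8), so its low density rests on more peaks than that of any other of the 15. The channel genes were Trpm3, with 7 (8.16) and 5 (5.83), Asic2, an acid-sensing channel, with 12 (11.0) and 10 (9.19), and Dpp6, an auxiliary subunit of potassium channels, with 10 (11.0) and 6 (6.59). Csmd1 held 19 (11.6) and 14 (8.52), Frmd4a, a FERM-domain scaffold, 5 (8.38) and 4 (6.71), Hpse2, a heparanase homologue, 5 (8.31) and 2 (3.32), and Wwox, an oxidoreductase in a common fragile site, 10 (11.0) and 8 (8.76). Of the 15, 4 stayed low in both lists with at least 5 fragments (Cdh12, Csmd1, Lsamp and Prkg1) and 0 with the q limit, which leaves 330 WT peaks over all 215 genes.

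**Figure D3:**
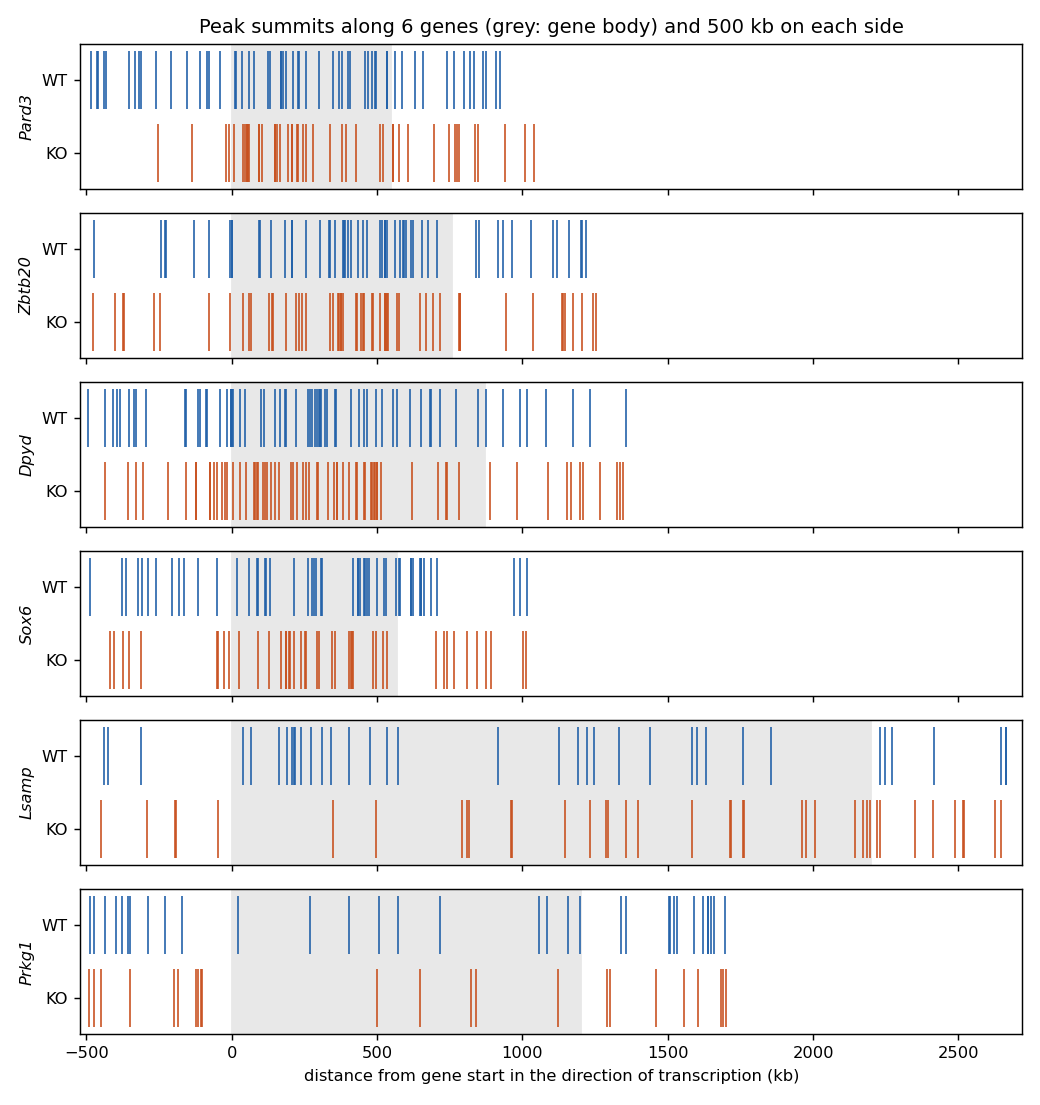
Peak summits (vertical lines, WT blue above KO orange) along Pard3, Zbtb20, Dpyd, Sox6, Lsamp and Prkg1 and 500 kb on each side, by distance in kb from the gene start in the direction of transcription; grey marks the gene body. Summits are dense in the first 4 genes, the high ones, and sparse in Lsamp (27 WT, 25 KO) and Prkg1 (10 WT, 5 KO).

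Chromosome 19 had the lowest densities. It carried 6 very long genes with medians of 8.83 WT and 5.0 KO peaks per Mb, and 3 of them departed lower in WT and 5 in KO, among them Prkg1, Hpse2, Trpm3 and, in KO, Sorcs3, a sorting receptor with 7 WT peaks (11.7) and 2 KO peaks (3.34). All sequence of chromosome 19 had 15.5 WT and 11.0 KO peaks per Mb, against 20.3 and 15.9 on chromosome 8. Other chromosomes came nearer to it, with 18.9 and 12.5 on chromosome 7 and 18.7 and 12.7 on chromosome 17. The 5 very long genes of chromosome 18 had medians of 12.7 and 5.76, and 3 of them departed lower in KO. With each gene set against all other sequence of its own chromosome, the number of low genes went from 35 to 21 in KO and from 20 to 23 in WT. That reference also takes in shorter genes and sequence outside genes. Windows of 1 Mb held on average 17.1 KO and 22.2 WT peaks, where the very long genes had 19.1 and 21.3 per Mb. The 2 changes of reference were not separated. The 16 high genes were spread over 10 chromosomes, with at most 3 on any of them (Adgrv1, Pde4d and Sugct on chromosome 13).

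Because each list was made from its own IP and input, genes that departed in one list could be read in the other. The 23 genes high in WT had a median of 37.2 KO peaks per Mb, from 18.3 to 56.7. Of these, 22 lay above the pooled KO rate, 16 departed higher in KO and 0 departed lower. The 20 genes low in WT had a KO median of 8.64 per Mb, with 1 gene above the pooled rate, Lhfpl3, and 15 departing lower. In the other direction, the 34 genes high in KO had a WT median of 31.5 per Mb, from 17.6 to 51.0, and 29 lay above the pooled WT rate. The 35 genes low in KO had a WT median of 12.3 per Mb, with 2 above the pooled rate. Across the 2 genotypes, gene-to-gene differences in density therefore carried over in these libraries. So did those of 1 Mb windows, of which 255 were called higher in WT and 132 in both lists, and 244 and 135 lower. The carry-over was thus not particular to very long genes.

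The departing genes, pooled, also differed from their own surroundings. Windows picked by the same rule were not set against their flanks, so this contrast is not shown to be particular to genes. In the 23 genes high in WT the pooled KO density was 35.6 per Mb inside the genes and 25.0 per Mb in the 500 kb on each side, a ratio of 1.43 (1.27 to 1.61), and 19 of the 23 genes lay above their own flanks. In the 20 genes low in WT it was 9.37 inside and 13.2 outside, a ratio of 0.712 (0.587 to 0.863). In the 172 genes that did not depart in WT, KO density was 18.4 inside and 18.4 outside, a ratio of 1.00 (0.950 to 1.05). Read the other way, the ratio of WT density inside to outside was 1.13 (1.03 to 1.24) for genes high in KO, 0.760 (0.670 to 0.862) for genes low in KO and 0.924 (0.877 to 0.973) for the rest. The 1.13 had an interval of 0.991 to 1.25 with at least 5 fragments. Flanks nevertheless followed the genes in part, with a Pearson correlation between gene and flank density of 0.435 in WT and 0.452 in KO over 215 genes.

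Read in the same lists, which chose the genes and so make this a description, the ratio to the flanks varied among the 16 high genes. Its interval lay above 1 for 4 of them in WT, 10 in KO and 3 in both (Pard3, Psd3 and Zbtb20), and below 1 for 0. Such intervals were not counted over the other very long genes. These counts therefore have no background share beside them and are not shown to be particular to the high genes. Zbtb20 had 48.8 peaks per Mb inside against 19 in its flanks in WT and 48.8 against 20 in KO, ratios of 2.57 (1.44 to 4.72) and 2.44 (1.38 to 4.43). Pard3 had 51.0 against 29 in WT and 51.0 against 18 in KO, ratios of 1.76 (1.01 to 3.06) and 2.83 (1.51 to 5.44). Psd3 had 45.9 against 14 and 44.0 against 19, ratios of 3.28 (1.63 to 6.85) and 2.31 (1.21 to 4.49). In Dpyd the ratio was 1.62 (0.961 to 2.75) in WT and 1.9 (1.14 to 3.22) in KO, and in Plcb1 it was 1.17 (0.716 to 1.89) and 1.23 (0.717 to 2.10). Thsd7b showed no such contrast, with 31.7 inside against 36 in WT and 31.7 against 33 in KO. Lsamp was low together with its surroundings, at 12.3 against 10 in WT and 11.4 against 14 in KO. Prkg1 was lower than its flanks in both lists, with ratios of 0.362 (0.154 to 0.791) and 0.231 (0.067 to 0.651).

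Transcription direction was known from the promoter table for 169 of the 215 genes, 19 of them high in WT. Around their starts the KO density in steps of 100 kb was 20.0, 22.6, 27.4, 17.9 and 32.6 per Mb before the start and 40.5, 36.8, 45.3, 36.3 and 45.3 per Mb after it. At their ends it was 35.8, 44.2, 35.3, 39.5 and 30.0 per Mb before the end and 24.7, 26.3, 27.4, 22.6 and 34.2 per Mb after it. All 5 steps after the start were above all 5 before it, and the interval of the last step before it (25.0 to 41.8) reached those after it. At the end, the step of 30.0 before and that of 34.2 after it were in the reverse order, so the groups of steps overlapped. Divided into 5 equal parts from start to end, these genes held 40.1, 37.0, 41.6, 38.2 and 28.6 KO peaks per Mb, with 75 peaks in the last part and 97 to 109 in the others. The 27 genes high in KO with a known direction held 32.1 to 33.3 WT peaks per Mb in the first 4 parts and 29.6 in the last.

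**Figure D4:**
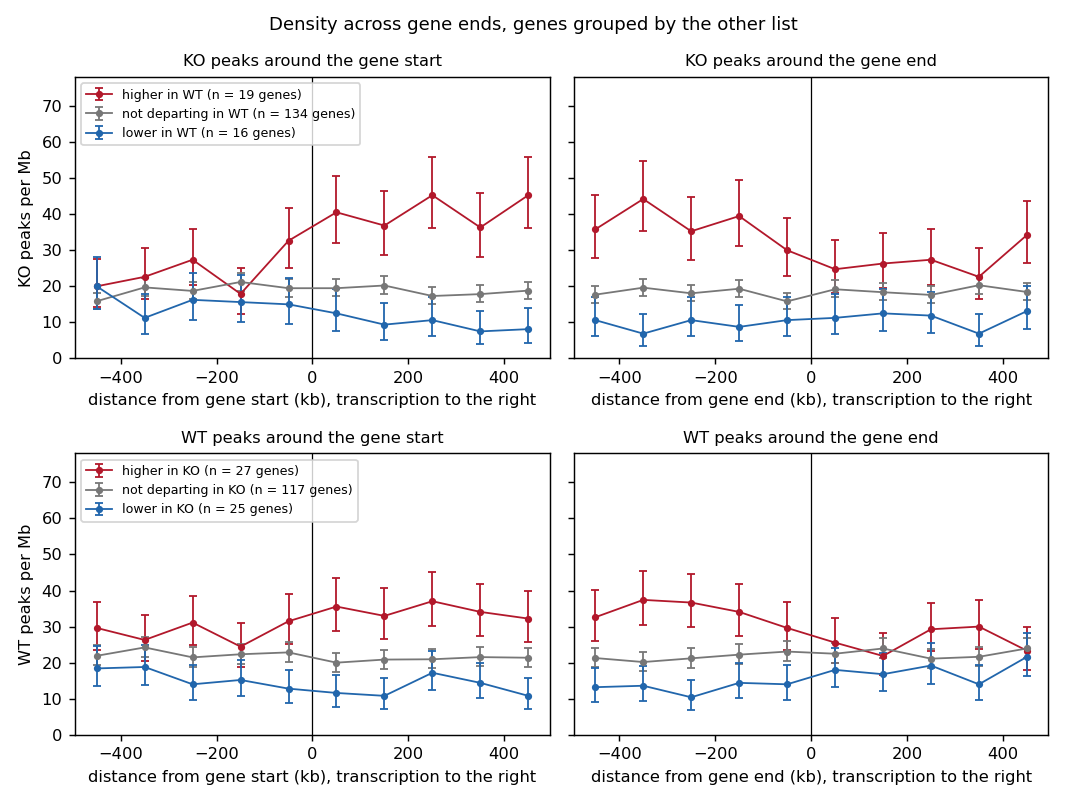
Peaks per Mb in 100 kb steps around the gene start (left) and end (right), KO peaks for genes grouped by the WT list (top) and WT peaks for genes grouped by the KO list (bottom); red, grey and blue are genes higher, not departing and lower in the other list, and bars are 95% counting intervals. KO density in the 19 genes high in WT goes from 32.6 in the last 100 kb before the start to 40.5 in the first 100 kb after it.

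Gene groups differed in level. They were drawn up from general knowledge of the encoded proteins, but with earlier results of these data known. Their differences are therefore descriptions. The member called highest or lowest of a group below is so by its density over both lists together. The 18 very long genes known for broad expression that includes liver had medians of 26.2 WT and 32.4 KO peaks per Mb, against 20.6 and 17.0 over all 215 genes. Of the 18, 13 lay above the pooled WT rate (72.2%, against 45.1% of all) and 15 above the pooled KO rate (83.3%, against 43.7%). In WT 8 departed higher, in KO 9, and in both 6 (among them Dpyd, Lpp, Pard3, Ptprk and Zbtb20), 33.3% against 7.44% of all 215, while 1, Wwox, departed lower. The density exceeded that of the flanks in 11 of the 18 in WT and in 16 in KO, against 94 and 107 of all 215. The group makes up 6 of the 16 genes high in both lists, and the other 197 genes supply 10. Members of this group not in that set included Cdkal1, a tRNA-modifying enzyme, with 25 WT peaks (37.7) and 17 KO peaks (25.6), and Smyd3, a lysine methyltransferase, with 15 (26.5) and 6 (10.6). RNA levels were not part of these files, so expression itself was not compared with peak density.

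The 11 DNA-binding transcription factors had medians of 28.0 and 30.4 per Mb, and 9 and 8 lay above the pooled rates. They departed higher in both lists at Foxp2, Sox6 and Zbtb20 (27.3%, against 7.44% of all), and lower in neither list. Zfhx3 was the lowest over both lists, with 10 WT peaks (14.7) and 9 KO peaks (13.2). The groups overlap: Zbtb20, Rora and Foxp1 are in both of these. The 5 phosphodiesterases and protein kinases had medians of 30.8 and 21.2, and their WT densities spanned 8.33 to 34.8 and their KO densities 4.16 to 30.9, with Prkg1 lowest in each list.

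The neurexin, cadherin, ion channel, and glutamate and GABA receptor groups had medians below those of all 215 genes (20.6 WT and 17.0 KO). The 24 neurexin, contactin and IgLON genes had medians of 19.4 and 15.6 per Mb, and 0 departed higher and 4 lower in both lists (Cadm2, Lsamp, Nrxn3 and Sdk1), 16.7% against 6.98% of all 215. Negr1 was the highest over both lists, with 28 WT peaks (37.1) and 17 KO peaks (22.5). The 9 cadherins, catenins and protocadherins had medians of 15.9 and 13.3, 2 were low in both lists (Cdh12 and Cdh18, 22.2%), and Ctnna2 was the highest with 26 (23.7) and 23 (20.9). The 12 ion channel genes had medians of 19.3 and 11.9, with 3 low in both lists (Asic2, Dpp6 and Trpm3), 25.0% against 6.98% of all. Kcnd2 was the highest over both lists, with 10 (19.4) and 17 (33.0), while in WT alone Cacna1c was above it with 19 (31.1). The 7 glutamate and GABA receptors had 17.0 and 14.4, with Gabrg3 lowest at 8 (11.9) and 7 (10.4) and Grm8 highest at 25 (29.1) and 26 (30.2).

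The 13 axon guidance and growth factor receptors had medians of 20.6 and 18.5, with Unc5d lowest over both lists at 10 (17.5) and 6 (10.5) and Erbb4 highest at 33 (30.6) and 36 (33.4). The 6 receptor tyrosine phosphatases had 21.4 and 19.6, with Ptprn2 lowest at 12 (15.1) and 6 (7.57) and Ptprk highest. The 15 genes of the CSMD, LRP1B and sarcoglycan list had 17.7 and 17.3, with 2 high (Adgrv1 and Thsd7b) and 2 low (Csmd1 and Csmd2) in both lists, 13.3% each against 7.44% and 6.98% of all. The 4 RNA-binding genes had 16.7 and 17.5, with Rbms3 at 18 (17.0) and 7 (6.62) and Celf2 at 14 (16.3) and 24 (28.0). The 21 genes of large fragile regions had 21.5 and 17.5, with 2 high (Dpyd and Thsd7b) and 2 low (Csmd1 and Wwox), 9.52% each, and medians within 1 peak per Mb of those of all 215. The 88 genes in no group had 20.9 and 16.9, with 5 high (5.68%) and 2 low (2.27%) in both lists.

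**Figure D5:**
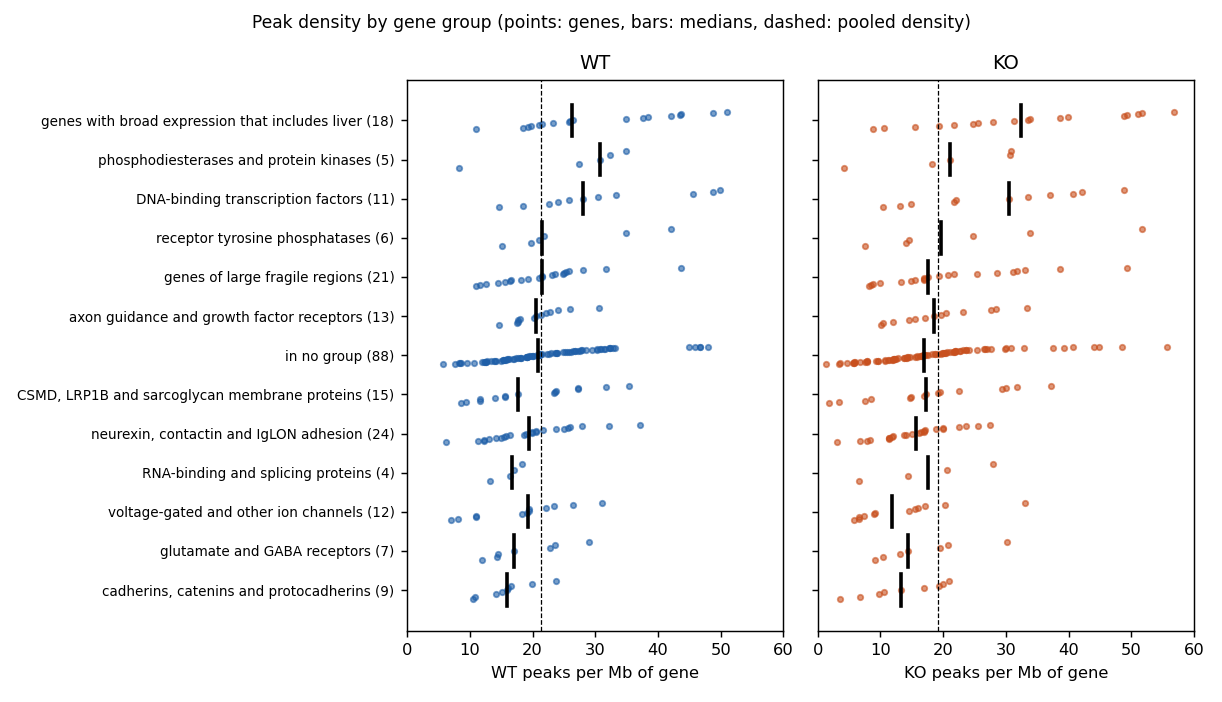
Peaks per Mb by gene group in WT (left) and KO (right); points are genes, black bars group medians, dashed lines the pooled densities of 21.3 and 19.1, and numbers in parentheses the genes in each group. The liver-expressed, transcription factor, phosphodiesterase and kinase, and phosphatase groups have medians above the pooled density in both lists, the fragile-region group has one above it in WT and below it in KO, and all other groups have medians below it in both. The medians of all 215 genes, 20.6 in WT and 17.0 in KO, also lie below the pooled densities.

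Few genes departed in WT against KO. KO peaks were 47.3% of all peaks in very long genes, and the share per gene ran from 7.69% to 82.4% with a median of 45.5%. Of the 215 genes, 66 had more KO than WT peaks, 137 fewer and 12 equal numbers. The exact interval of the share left out the pooled share of the other genes upward in 5 genes (2.33%, 1 Mb windows 4.22%) and downward in 4 (1.86%, windows 8.19%). Both counts were below the background share. The genes held on average 17.9 WT and 16.0 KO peaks and the windows 22.2 and 17.1, and fewer peaks widen the interval. The part of this in the lower counts was not tested.

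The 5 upward genes were Lhfpl3, Immp2l, Rabgap1l, Ptprd and Macrod2. Lhfpl3, a tetraspan membrane protein, had 3 WT and 14 KO peaks, a share of 82.4% (56.6 to 96.2), and the lowest WT density of all, 5.67 per Mb. Immp2l, a subunit of the mitochondrial inner membrane peptidase, had 20 and 36 (64.3%, 50.4 to 76.6). Ptprd, a receptor phosphatase that organizes synapses, had 45 and 77 (63.1%, 53.9 to 71.7), and Macrod2, a mono-ADP-ribosylhydrolase, had 47 and 66 (58.4%, 48.8 to 67.6). Rabgap1l had a share of 64.0% (49.2 to 77.1). Ptprd and Macrod2 are also among the 5 longest genes. The other 3 of those were Cntnap2, with 56 WT peaks (25.0 per Mb) and 38 KO peaks (17.0), Lsamp, and Lrp1b, an LDL receptor relative, with 32 (15.5) and 35 (17.0).

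The 4 downward genes were Camta1, Cacna1c, Dlgap2 and Nckap5. Camta1, a calmodulin-binding transcription activator, had 12 WT peaks and 1 KO peak (7.69%, 0.195 to 36.0). Cacna1c, the pore subunit of an L-type calcium channel, had 19 and 4 (17.4%, 4.95 to 38.8). Dlgap2, a postsynaptic scaffold, had 18 and 6 (25.0%, 9.77 to 46.7), and Nckap5 had 27 and 11 (28.9%, 15.4 to 45.9). Thsd4, with 9 and 2 (18.2%, 2.28 to 51.8), had a low share whose interval reached the pooled value, and so did Sdk1. On the upper side, Nbea with 7 and 16, Kcnma1 with 5 and 11 and Foxp1 with 11 and 20 peaks likewise did not depart. The peak choice decided most of these calls. With at least 5 fragments Lhfpl3 and Ptprd stayed upward and 0 of the 4 stayed downward. Among the 40000 strongest of each list Immp2l, Lhfpl3, Macrod2 and Ptprd stayed upward and Camta1 and Nckap5 downward. With the q limit 0 of the 5 stayed upward and Nckap5 alone stayed downward. Each of these settings also called other genes in both directions, among them Dpyd, which departed upward in each.

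The KO share was lowest in the very long genes with the most neighbouring genes. The median number of other protein-coding genes within 1 Mb was 25 for the 4 downward genes and 9 for the 5 upward genes and for all 215. In the 54 genes with the most neighbours (16 to 43) the pooled share was 43.3%, with 19.5 WT and 14.9 KO peaks per Mb. In the 54 with the fewest (0 to 5) it was 49.1%, with 19.7 and 19.1 per Mb. In the quartiles between, from fewer to more neighbours, the shares were 47.7% and 47.9%. These quartiles had 23.7 and 22.1 WT and 21.6 and 20.4 KO peaks per Mb. Neither density thus changed steadily with neighbours, and the lower share lay mainly in the quartile with the most. The Spearman correlation of share with neighbours was -0.23 across 215 genes, and the part of base composition or fragment size in it was not tested.

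Individual peaks of WT and KO seldom coincided. Of the WT peaks in very long genes 0.550% (0.341 to 0.840) overlapped a KO peak by at least 1 bp, and of the KO peaks 0.612% (0.379 to 0.935), from 21 pairs. Elsewhere on these chromosomes the shares were 0.859% and 1.13%. The overlap that unrelated peaks at these densities would give was not computed, so the pairs below are not shown to be common sites. The pairs with the most WT fragments lay in Lrrtm4 and Dock2. Lrrtm4, a synaptic leucine-rich repeat protein, had one at chr6:80549034-80549286 with 12 WT fragments against 7 in KO. Dock2, an exchange factor for RAC of blood cells, had one at chr11:34544835-34544960 with 11 against 4. Zbtb20 had a pair at chr16:43402979-43403240 with 7 and 5 fragments, Pard3 one with 5 and 6, and Dpyd one with 5 and 4. In the 16 genes high in both lists 3 pairs were found, 0.667% of their WT peaks (0.138 to 1.94), an interval that holds the 0.534% (0.317 to 0.843) of the other very long genes. Loosely, 58.0% (53.3 to 62.6) of the WT summits in the 16 genes had a KO summit within 10 kb, against 31.9% (30.4 to 33.6) in the others, and both lists are denser there. The densities of genes thus went together between the libraries, while few single peaks coincided.

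The strongest peaks of very long genes were small too. In WT, peaks with 8 or more fragments were 2.80% (2.30 to 3.38) of those in very long genes against 4.42% elsewhere, and in KO 2.10% (1.65 to 2.64) against 3.57%. The most fragments in WT were 12, in Lrrtm4 and in Nkain3, a membrane protein that interacts with the sodium pump. In KO they were 38, also in Nkain3, at chr4:20191847-20191919, but over a caller background of 12.4 and with a fold enrichment of 2.92. The KO peak with the highest fold among the 12 with the most fragments was in Dock2, at chr11:34681668-34682235, with 14 fragments and a fold of 9.57. Zbtb20 held a WT peak of 10 fragments with a fold of 6.50 and, at another position, chr16:43524610-43524719, a KO peak of 10 fragments with a fold of 5.86. The caller's folds and q-values are those of the authors' lists.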

How the data were processed

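H3K23pr ChIP-seq of liver was deposited as 1 peak list per genotype, each an IP against its own input, and groups were taken from the sample titles and genotype labels. The submitters' processing notes name cutadapt 1.9.3, Bowtie2 2.2.4 and the build mm10. Peaks were called by MACS2 2.1.1.20160309, per the file headers, in paired-end mode with a p cutoff of 0.001 and at most 2 duplicate fragments. The deposited pileup is a signal that counts fragments covering a summit in whole numbers and is not scaled by depth. The deposited −log10 p and −log10 q values and the fold enrichment, a ratio over the local background, are the authors' caller's own and served only to describe or filter peaks. A minimum of 4 fragments limits what these depths can call, and longer fragments raise the pileup that the same number of fragments gives.

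Summits were counted in genes of the RefSeq table of GRCm38.p6 with Python 3.11.15, pandas 2.3.3, numpy 2.4.6 and scipy 1.17.1, and plotted with matplotlib 3.10.9. Overlapping genes were merged for pooled densities. Sequence outside genes ran from 3 Mb to the last gene end of each chromosome. Flanks were 500 kb on each side. Intervals are exact Poisson (peaks per Mb) or exact Clopper-Pearson (shares and ratios), and reads without molecular identifiers are not independent molecules. The counting code was tested on simulated peaks. No test across samples was possible with 1 library per group.

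The text names the 5 longest genes, the 5 highest and lowest in each list, those departing the same way in both, the 4 highest and lowest KO shares among genes with at least 10 peaks, and the extremes of each of 12 gene groups of 3 or more members. Genes with predicted names are counted but not named, and 1 gene high in both lists is counted but not reported here. Genes departing in KO share, those with strong, shared or promoter peaks, those beside the length limit and Cdkal1 and Smyd3 were named after their values were seen. Members, gene groups and rules were chosen with earlier results of these data known. Alternatives were peaks of at least 5 fragments, a q of 0.05, the 40000 strongest peaks, gene lengths of 300 kb and 1 Mb, gene ends trimmed by 10 kb, the own chromosome as reference and summits within 500 bp. Peaks on the sex chromosomes were left out by the length rule's range of chromosomes.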

Additional observations from a re-analysis of the deposited data

Results flagged for a closer look

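Very long protein-coding genes on the X chromosome lie outside the range of chromosomes 1 to 19 and entered no comparison above. The 11 such genes, 10.4711 Mb in all, held 62 WT peaks and 47 KO peaks, which is signal in data that the comparisons did not use. That is 5.92 peaks per Mb (4.54 to 7.59) in WT and 4.49 (3.30 to 5.97) in KO, against 21.3 and 19.1 in the autosomal genes. Dmd, which encodes dystrophin, held 18 WT and 5 KO peaks, and Il1rapl1, a synaptic receptor of the interleukin-1 receptor family, held 6 and 8. The mice are labelled male. The cause of the difference was not tested.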

How the results depend on the processing

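No paired analysis was possible because each genotype has 1 IP library and the labels carry no replicate numbers. Against shorter genes, the density ratio (WT 0.870, KO 1.05) was 0.765 and, with its direction turned, 0.903 for peaks of at least 5 fragments; 0.674 and, also turned, 0.890 for a q of 0.05 or smaller; and WT 0.791 for genes of 1 Mb or longer. At the lowest background only, an alternative chosen after seeing the data, it was 0.977 and 1.23. Against sequence outside genes (1.01 and 1.18) it was 0.975 and 1.14 with at least 5 fragments, and in WT 0.910 for genes of 1 Mb and 1.05 for genes of 300 kb or longer. The KO to WT ratio (0.898) was 0.819 with at least 5 fragments and turned to 2.66 with the q limit and 1.23 for the 40000 strongest; over that of shorter genes (1.20) it was 1.32 and 1.32 in the last pair. The q limit left 11 high and 0 low genes in WT, 17 and 8 in KO, and 3 and 0 in both. Genes low in both numbered 7 with at least 5 fragments and 9 at the lowest background, and genes low in KO 21 against their own chromosome. Genes with a lower KO share numbered 2 with at least 5 fragments, 7 at the lowest background and 8 among the 40000 strongest. Those with a higher share numbered 1 with the q limit (Dpyd, not among the 5 named above) and 10 among the strongest. Overlap was 2.28% of WT and 2.54% of KO peaks with summits within 500 bp. Inside-to-flank ratios ran from 1.39 to 1.47 (KO) and from 1.11 to 1.20 (WT) in 3 alternatives, also chosen after seeing the data. Under the q limit the density relative to the other genes turned in WT for Plcb1 (0.789), Psd3 (0), Pard3 (0), Sugct (0.649), Lpp (0.908), Nrxn3 (1.70) and Cadm2 (1.13), and in KO for Sugct (0.733). Of the values by named gene and list, that limit kept 53 on their side, weakened 51 and turned 8; at least 5 fragments kept 85, strengthened 4 and weakened 23. The q limit leaves few peaks per gene; the cause of the other changes was not tested. With 1 library per genotype, nothing separates genotype from library.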
